A study of Mus musculus with 8 samples.

Results

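The genes described here mark microglia and macrophages, and were chosen by name from a list of 39 symbols. Of these, 38 were measured among the 15705 genes of the deposited table, and Pf4, a platelet factor gene also used as a macrophage marker, was not analysed here. The RNA came from the lateral ganglionic eminence (LGE), in which striatal projection neurons are born, of mouse embryos at E18.5, and was enriched for poly(A) tails before sequencing. The 4 embryos called conditional knockout (cKO) had the genotype Dlx1-Cre; Isl1 flx/flx, and the 4 littermate controls were Isl1 flx/flx without Cre, so all 8 embryos carried floxed alleles of the homeobox gene Isl1. Cre is driven by Dlx1, which neuronal progenitors and young neurons of the ventral forebrain express. Effects of Cre itself and of losing Isl1 cannot be told apart, and the labels give neither litter nor sex.

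Microglia are the resident macrophages of brain tissue. They arise from yolk sac progenitors rather than from the neural tube, enter the brain in the embryo and depend on signalling through the receptor Csf1r. In the healthy brain they carry a set of homeostatic receptors that sense purines, chemokines and lipids, they make the C1q proteins that start the classical complement cascade, and they digest cell debris in lysosomes. A second population, the border macrophages, lives in the meninges, around vessels and in the choroid plexus. In whole tissue, more cells of a type and more RNA per cell cannot be told apart.

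The deposited values per gene and library are whole numbers that were scaled and adjusted by the authors, so they are no read counts and the depth behind them is unknown. Among the 8 libraries 1 direction holds almost no variation, which makes the SDs and SEs below smaller than in unadjusted data. Their sums per library lay between 24202515 and 24456923 in the cKO and between 23732455 and 24419880 in the controls. Isl1 itself was higher in the libraries labelled cKO, with values of 4930, 5377, 5618 and 5971, against 3777, 3692, 4186 and 3517 in the control libraries (log2 fold change 0.53 ± 0.06 (SE), limma adjusted p = 0.000338). This value covers the whole gene, so it does not check the genotype, and cKO and control below mean the libraries so labelled. Markers of the labelled tissue were present: the 10 genes of the LGE and striatal neuron list summed to 833 to 877 RPKM in cKO libraries and to 789 to 822 RPKM in control libraries (RPKM are values per kilobase of gene, scaled to the library sum). The 10 pallial neuron genes, which a wider dissection would add, set 2 libraries apart. In cKO replicate 4 they summed to 7.95 RPKM, while the remaining cKO libraries held 15.3 to 21.7 RPKM. In control replicate 3 the sum was 1.95 RPKM, while the remaining control libraries held 14.5 to 20.6 RPKM. Without these 2 libraries 21 members rose and 0 fell, while of all 15698 genes tested 216 rose and 394 fell.

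Of the 38 microglia and macrophage genes, 24 rose in the cKO and 0 fell (limma, Benjamini-Hochberg adjusted p under 0.05). These 24 were 63.2% of the members, whereas 2.87% of all 15698 genes tested were called higher and 3.78% were called lower. At an unadjusted p under 0.05 the limma test found 32 members higher, against 9.65% of all genes, and 0 lower. The authors' deposited table called 29 members higher, against 2.73% of all genes, and 0 lower. The 4 cKO values lay above all 4 control values for 26 members (68.4%), against 6.37% of all genes, and below them for 0 members, against 6.33% of all genes. The median log2 fold change was 0.63 over the members and 0.01 over all genes tested. Each of the 26 separated members had p = 0.0286 in a two-sided exact permutation test over libraries, which is the lowest p possible with groups of 4. That p follows from the separation itself and adds nothing to the count of 26. In sum, the members reached 297 to 328 RPKM in cKO libraries and 209 to 226 RPKM in control libraries.

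**Figure D1:**
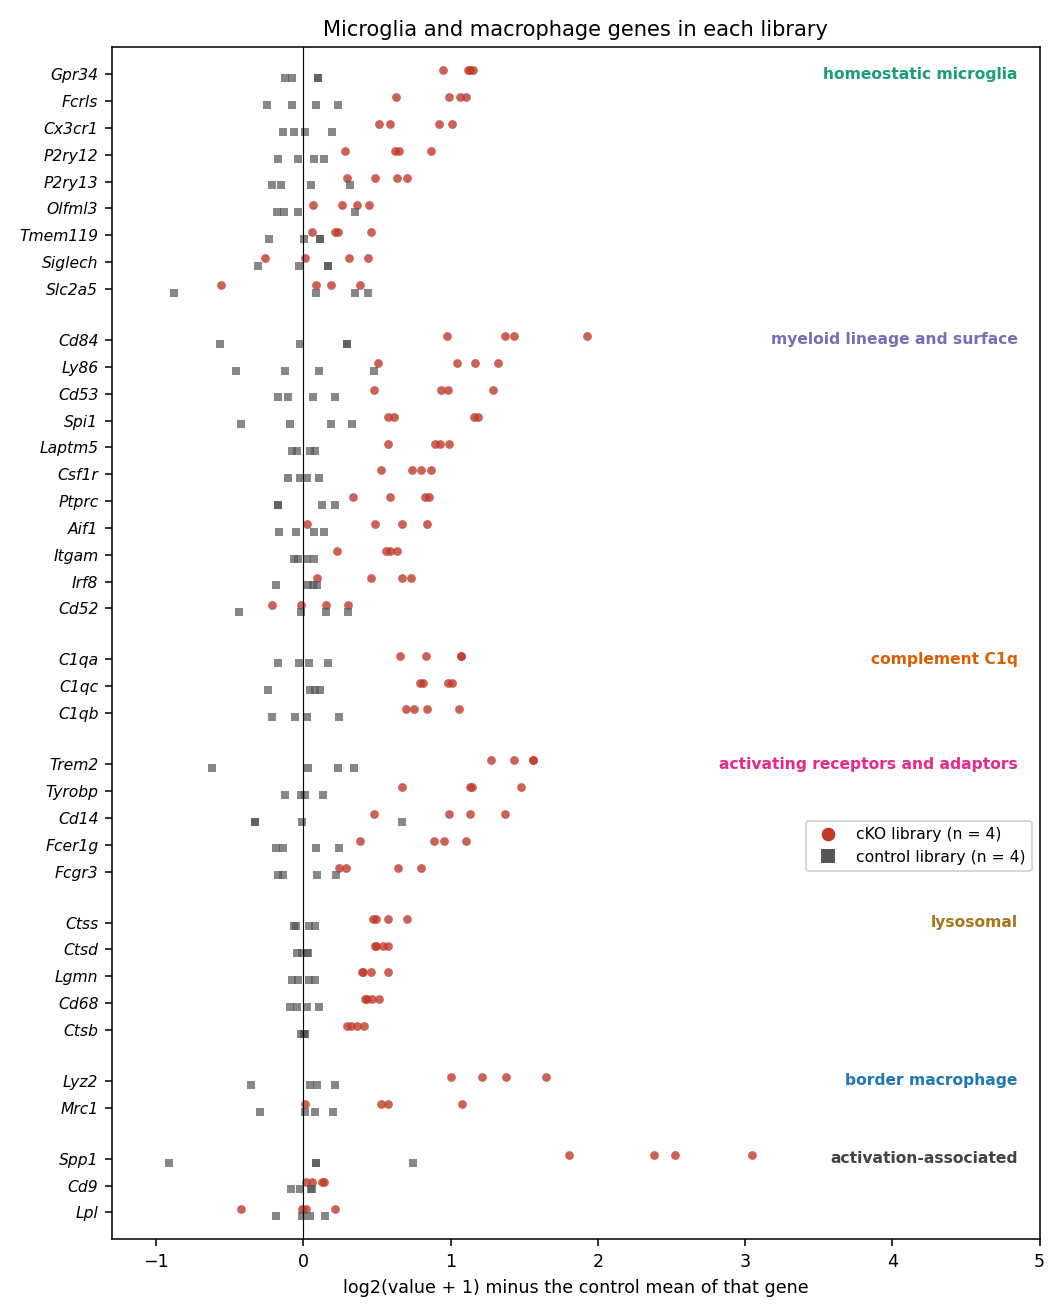
Each row is a gene, grouped by subgroup and ordered by its change; the horizontal axis is log2(value + 1) minus the mean of the 4 control libraries, with red circles for the 4 cKO libraries and grey squares for the 4 control libraries. In 26 of the 38 rows all red circles lie to the right of all grey squares, and Spp1 is displaced farthest, with a log2 fold change of 2.44.

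Among the 9 homeostatic genes of microglia, 4 rose and 5 did not pass. Gpr34, a lysophosphatidylserine receptor gene on the X chromosome, held values of 142, 141, 144 and 125 in cKO libraries, against 59, 69, 61 and 69 in control libraries (log2 fold change 1.09 ± 0.11, adjusted p = 6.72e-05). Every cKO library was far above every control library, and the fold between the means was 2.14. Fcrls, an Fc receptor-like gene of microglia, held 391, 281, 361 and 380 in cKO libraries, against 214, 172, 153 and 193 in control libraries (0.94 ± 0.13, adjusted p = 0.000676). The fractalkine receptor gene Cx3cr1, through which neurons signal to microglia, was at 581, 438, 619 and 462 in cKO libraries and at 278, 309, 293 and 350 in control libraries (0.76 ± 0.11, adjusted p = 0.00159). P2ry12, the purine receptor that steers microglial processes, was at 402, 339, 346 and 268 in cKO libraries and at 214, 195, 231 and 243 in control libraries (0.61 ± 0.12, adjusted p = 0.00827). These 3 genes also showed no overlap, with P2ry12 closest, where cKO replicate 4 at 268 lay just above control replicate 4 at 243.

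The other homeostatic genes moved less. The purine receptor gene P2ry13, a neighbour of P2ry12 on chromosome 3, averaged 74.8 ± 9.29 in the cKO and 51.8 ± 9.03 in the controls (SD, n = 4 each; log2 fold change 0.53 ± 0.15, adjusted p = 0.0676). With control replicate 1 left out it passed (0.63, adjusted p = 0.0309), as it did in the authors' deposited table (0.54, adjusted p = 0.0151). In the remaining 18 of 20 alternative settings, described below, P2ry13 did not pass. Tmem119, a membrane protein gene much used to mark microglia, held 60, 59, 70 and 53 in cKO libraries, against 55, 43, 55 and 51 in control libraries (0.24 ± 0.14, adjusted p = 0.404). Siglech, a sialic acid-binding lectin gene, held 42, 46, 34 and 28 in cKO libraries, against 27, 38, 33 and 38 in control libraries (0.13 ± 0.19, adjusted p = 0.799). The groups overlapped for both, and neither passed the test. Slc2a5, the fructose transporter gene, had a log2 fold change of 0.03 ± 0.30 with libraries between 24 and 47 in the cKO and between 19 and 49 in the controls. Olfml3, an olfactomedin-like gene, was at 0.29 ± 0.12 (adjusted p = 0.242). Without control replicate 1 it reached 0.40 and passed (adjusted p = 0.0462), but it did not pass in the remaining 19 of 20 alternative settings.

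P2ry12 and P2ry13 lie inside Med12l, and Gpr34 inside Cask, in each case on the opposite strand (GENCODE M21, GRCm38). The kit preserves strand; the strand option of the read counting is unknown here. The host genes had log2 fold changes of 0.05 for Med12l (adjusted p = 0.581) and 0.03 for Cask (adjusted p = 0.798), and shared at most 9 exon bases with these members.

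Of the 11 genes of the myeloid lineage and of leukocyte surfaces, 7 rose and 4 did not pass. Csf1r, the receptor for the survival factors Csf1 and Il34, held 691, 659, 632 and 547 in cKO libraries, against 352, 386, 373 and 408 in control libraries (log2 fold change 0.73 ± 0.08, adjusted p = 0.000133). The lysosomal membrane protein gene Laptm5 held 348, 372, 357 and 279 in cKO libraries, against 181, 177, 197 and 193 in control libraries (0.85 ± 0.09, adjusted p = 0.000192). Cd53, a tetraspanin gene of leukocytes, was at 125, 101, 98 and 71 in cKO libraries and at 47, 45, 53 and 59 in control libraries (0.92 ± 0.17, adjusted p = 0.00647). In all 3 the groups stood apart and cKO replicate 4 was the lowest cKO library. Csf1r shares 873 of its 5774 exon bases with Hmgxb3 on the opposite strand, which was at 0.06 (adjusted p = 0.476). Cd84, a leukocyte adhesion receptor gene of the SLAM family, was low, at 41, 31, 43 and 61 in cKO libraries and at 10, 19, 19 and 15 in control libraries, and rose by 1.43 ± 0.26 (adjusted p = 0.00532). Here cKO replicate 4 was the highest library.

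Spi1, which encodes the myeloid master regulator PU.1, held 56, 38, 57 and 37 in cKO libraries, against 18, 28, 23 and 31 in control libraries (0.88 ± 0.22, adjusted p = 0.0329). Its call rested on single libraries: without cKO replicate 1 or 3, or control replicate 1 or 3, the log2 fold change stayed between 0.74 and 0.85 with adjusted p between 0.0751 and 0.0909. It also missed the threshold with no mean trend in the fit (adjusted p = 0.0649), with the nearly invariant direction of the values modelled (0.0641) and without control replicate 3 and cKO replicate 4 together (0.0891). Itgam, the integrin CD11b, rose by 0.50 ± 0.12 (adjusted p = 0.0288), a call lost in every fit that left out a library except that without cKO replicate 2, at adjusted p from 0.0502 to 0.0826, and also in deposited RPKM (0.0586), with the nearly invariant direction modelled (0.073) and without control replicate 3 and cKO replicate 4 together (0.147). In the annotation 3450 of its 5024 exon bases are shared with the gene model Gm49368 on the same strand, so its reads could be split. Ly86, which encodes the MD-1 partner of a Toll-like receptor homologue, rose by 1.01 ± 0.23 (adjusted p = 0.0216), a call that did not hold with cKO replicate 3 (adjusted p = 0.0613), cKO replicate 4 (0.0732) or control replicate 4 (0.064) left out, or with no mean trend (0.0603).

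Ptprc, the leukocyte common antigen CD45, stood at the threshold. It held 51, 36, 52 and 43 in cKO libraries, against 33, 25, 25 and 31 in control libraries, without overlap (log2 fold change 0.65 ± 0.18, adjusted p just above the threshold of 0.05). It passed without cKO replicate 2 (adjusted p = 0.0371) and without control replicate 1 (0.0481). Irf8, a transcription factor gene needed for microglial development, was at 0.49 ± 0.16 (adjusted p = 0.117), but at 0.62 with cKO replicate 3 left out, where it passed (adjusted p = 0.0371). Aif1, which encodes the microglial stain Iba1, was at 0.51 ± 0.17 (adjusted p = 0.123), but at 0.67 with cKO replicate 4 left out (adjusted p = 0.023). The authors' deposited table called all 3, at adjusted p = 0.0113 for Ptprc, 0.0247 for Irf8 and 0.0168 for Aif1. Ptprc did not pass in 14 of 19 alternative settings, Irf8 in 17 of 19 and Aif1 in 18 of 20. Cd52, a small leukocyte surface glycoprotein gene, lay between 6 and 9 in cKO libraries and between 5 and 9 in control libraries, too low for a difference to be read.

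All 3 genes of complement C1q rose by nearly the same amount. They encode the A, B and C chains of a single protein and lie together on the minus strand within 18.7 kb of chromosome 4 (136880129 to 136898803, GRCm38). C1qa held 267, 226, 267 and 200 in cKO libraries, against 130, 124, 112 and 142 in control libraries (log2 fold change 0.91 ± 0.11, adjusted p = 0.000476). C1qb held 274, 291, 338 and 263 in cKO libraries, against 192, 156, 140 and 165 in control libraries (0.84 ± 0.11, adjusted p = 0.000674). C1qc held 284, 289, 252 and 249 in cKO libraries, against 148, 155, 121 and 151 in control libraries (0.90 ± 0.10, adjusted p = 0.000161). No cKO library overlapped a control library in any of them. The log2 ratio of C1qa to C1qb ranged from -0.39 to -0.04 in cKO libraries and from -0.56 to -0.22 in control libraries, and the groups overlapped. Per length, they were the most abundant members outside the cathepsins, Lgmn and Cd9, with C1qb at 11.3 ± 1.32 RPKM in the cKO and 6.38 ± 0.934 RPKM in the controls (SD, n = 4 each).

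Of the 5 activating receptors and adaptors, 3 rose and 2 did not pass. Trem2, a lipid-sensing receptor that signals through the adaptor Tyrobp, held 94, 86, 94 and 77 in cKO libraries, against 32, 40, 20 and 37 in control libraries (log2 fold change 1.46 ± 0.20, adjusted p = 0.000871). Tyrobp, also called DAP12, held 123, 124, 157 and 89 in cKO libraries, against 56, 51, 55 and 61 in control libraries (1.11 ± 0.16, adjusted p = 0.00118). Receptor and adaptor thus rose together, by 2.72-fold and 2.21-fold between the means. Fcer1g, the gamma chain shared by Fc receptors, was at 63, 70, 60 and 42 in cKO libraries and at 38, 28, 29 and 34 in control libraries (0.83 ± 0.18, adjusted p = 0.0186), and lost its call without cKO replicate 2 (0.0635) or control replicate 3 (0.0518). Fcgr3, a low affinity IgG receptor gene, did not overlap between groups but missed the threshold at 0.49 ± 0.16 (adjusted p = 0.109). It passed in the authors' deposited table (0.0292) but not in the remaining 19 of 20 alternative settings. The lipopolysaccharide co-receptor gene Cd14 was close to 0, between 6 and 12 in cKO libraries and between 3 and 7 in control libraries (0.99 ± 0.34, adjusted p = 0.124).

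All 5 lysosomal genes rose, by smaller folds and with tight replicates. Ctsd, the aspartic protease cathepsin D, held 4231, 3972, 4137 and 3992 in cKO libraries, against 2818, 2750, 2898 and 2887 in control libraries (log2 fold change 0.52 ± 0.04, adjusted p = 3.8e-06). Ctsb, the cysteine protease cathepsin B, held 4637, 4782, 4935 and 4553 in cKO libraries, against 3668, 3727, 3712 and 3729 in control libraries (0.35 ± 0.03, adjusted p = 6.72e-05). Lgmn, the asparagine-cleaving protease legumain, held 1393, 1285, 1236 and 1231 in cKO libraries, against 985, 885, 911 and 960 in control libraries (0.46 ± 0.05, adjusted p = 0.000242). The 4 cKO libraries of each lay in a narrow band well above the controls. These 3 genes are expressed by many brain cell types, whereas cathepsin S (Ctss) and macrosialin (Cd68) are largely myeloid. Ctss was at 318, 271, 275 and 291 in cKO libraries and at 188, 200, 187 and 206 in control libraries (0.56 ± 0.08, adjusted p = 0.000845). Cd68 was at 114, 121, 117 and 113 in cKO libraries and at 79, 91, 82 and 86 in control libraries (0.46 ± 0.10, adjusted p = 0.0139), a call lost without control replicate 4 (0.0565) and without control replicate 3 and cKO replicate 4 together (0.0687).

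In RPKM, the difference of the group means was largest for Ctsd, at 25.9 RPKM, followed by Ctsb at 8.67, Lgmn at 7.1 and C1qb at 4.94. Ctsb, Ctsd, Lgmn and the tetraspanin gene Cd9, chosen after their values were seen, together supplied 59.6% of the members' summed RPKM in the cKO and 65.9% in the controls. With these 4 and with Spp1 and Lpl left out, as genes that other brain cells also express, the remaining 32 measured members summed to 121 ± 10.4 RPKM in the cKO and 70.8 ± 4.35 RPKM in the controls (SD, n = 4 each), 1.71-fold. Ctsd shares 808 of its 2351 exon bases with the gene model Gm49369 on the same strand. Ctsb shares 774 of its 6051 exon bases with Fdft1 on the opposite strand, and Fdft1 itself fell, at -0.17 on the log2 scale (adjusted p = 0.0342).

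Border macrophages were represented by few genes. Lyz2, the lysozyme gene of macrophages and other myeloid cells, held 82, 73, 99 and 63 in cKO libraries, against 36, 24, 33 and 32 in control libraries (log2 fold change 1.31 ± 0.18, adjusted p = 0.000794). Its reads may be shared with the near-identical Lyz1, which makes the value uncertain. Mrc1, the mannose receptor gene that separates border macrophages from microglia, was at 29, 43, 30 and 20 in cKO libraries and at 16, 23, 20 and 21 in control libraries, with overlapping groups (0.55 ± 0.24, adjusted p = 0.234). Of 10 further border macrophage genes, 5 were measured, 1 of them rose and 4 did not pass. The gene that rose was Stab1, a scavenger receptor gene also expressed by some endothelia (0.45 ± 0.09, adjusted p = 0.0111), while the hyaluronan receptor gene Lyve1 stayed between 2 and 5 in the cKO and between 0 and 2 in the controls. F13a1, coagulation factor XIII subunit A, had values of 17, 11, 13 and 11 in cKO libraries and 7, 4, 9 and 7 in control libraries (0.88 ± 0.29, adjusted p = 0.11).

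Among the 3 activation-associated genes, 1 rose. Spp1, the secreted phosphoprotein osteopontin, held 129, 78, 117 and 186 in cKO libraries, against 37, 23, 11 and 23 in control libraries (log2 fold change 2.44 ± 0.33, adjusted p = 0.000804). It had the largest fold of all members, 5.43 between the means, from a low control level of 0.589 ± 0.273 RPKM. Its replicates also varied widely, with cKO replicate 4 highest and cKO replicate 2 lowest. Lpl, lipoprotein lipase, was at 300, 225, 350 and 305 in cKO libraries and at 335, 265, 300 and 312 in control libraries (-0.05 ± 0.12, adjusted p = 0.881). Cd9, a tetraspanin gene expressed by many brain cells, changed by 0.08 ± 0.05 on the log2 scale, short of the threshold (adjusted p = 0.404). Both overlapped between groups.

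**Figure D2:**
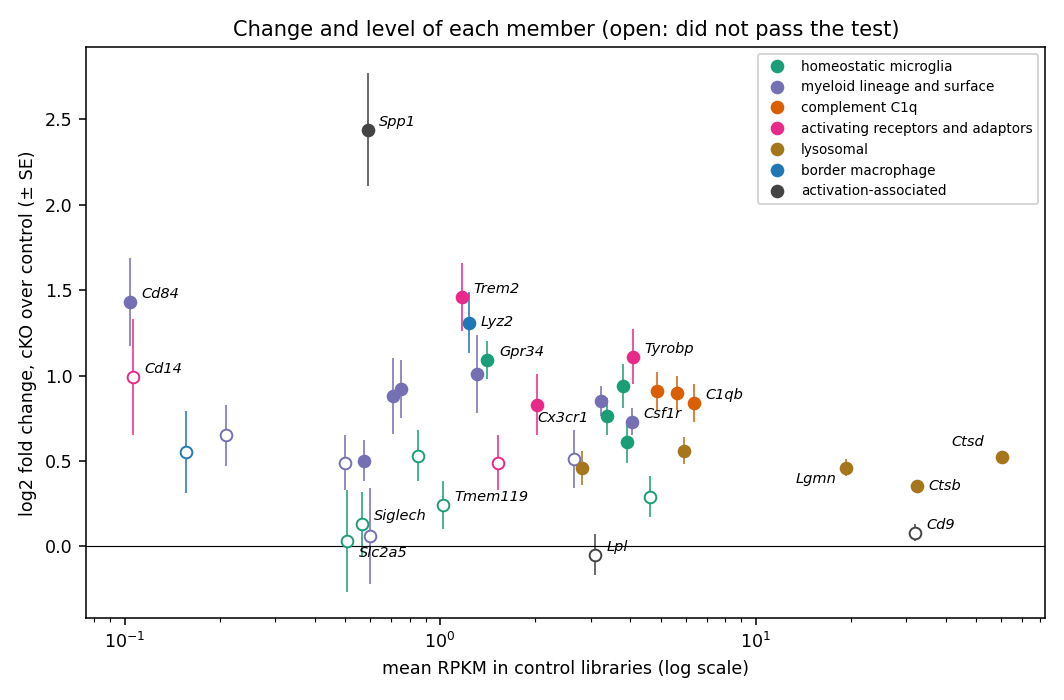
The horizontal axis is the mean RPKM of the 4 control libraries on a log scale and the vertical axis the log2 fold change of cKO over control with its SE; filled points passed the test, open points did not, and colours give the subgroup. Ctsd, Ctsb and Lgmn are the most abundant genes that rose, at 0.52, 0.35 and 0.46, while genes near or below 1 RPKM span from 0.03 (Slc2a5) to 2.44 (Spp1).

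The subgroups differed in the size of their rise. The median log2 fold change was 0.53 for the 9 homeostatic genes, 0.73 for the 11 lineage and surface genes, 0.90 for the 3 C1q genes, 0.99 for the 5 activating receptors and adaptors, 0.46 for the 5 lysosomal genes, 0.93 for the 2 border macrophage genes and 0.08 for the 3 activation-associated genes. The border macrophage median lies between Lyz2 at 1.31, also a gene of other myeloid cells, and Mrc1 at 0.55, which did not pass. The median of the activating receptors and adaptors is the value of Cd14, which was close to 0 and did not pass. With 10 rather than 1 added before the log, that median was 0.69, below the 0.86 of the C1q genes. No test was made between subgroups, whose genes were chosen with earlier results known. In the mean log2 value of each subgroup, all 4 cKO libraries lay above all 4 control libraries in all 7 subgroups. Among the activation-associated genes Spp1 alone separated the groups, and their summed RPKM overlapped, at 37.4 to 42.4 in cKO libraries and 33.1 to 38.3 in control libraries. Relative to the control mean, homeostatic genes were higher by 0.63, 0.52, 0.58 and 0.32 in cKO replicates 1 to 4, and activating receptors and adaptors by 1.08, 0.88, 1.14 and 0.80. Activating receptors and adaptors were thus above homeostatic genes in each cKO library. Lysosomal genes were higher by 0.52, 0.46, 0.46 and 0.44, the narrowest band of all subgroups. Over all members, the same difference was 0.80, 0.64, 0.79 and 0.59 in cKO replicates 1 to 4, and -0.07 to 0.09 in the control libraries. Within the cKO, replicate 4, the cKO library lowest in pallial genes, had the lowest value for 22 of the 38 members and replicate 1 for 0. Within the controls, replicate 3, the control library lowest in pallial genes, had the lowest value for 12 members and replicate 2 for 17.

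**Figure D3:**
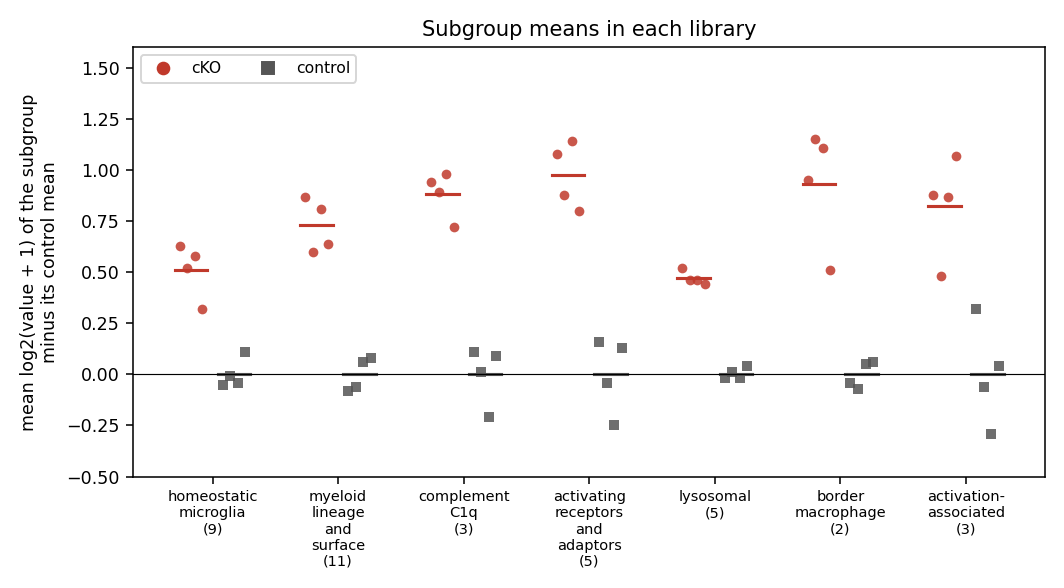
For each subgroup, with its number of measured genes in brackets, the vertical axis gives the mean log2(value + 1) in a library minus the mean of the 4 control libraries; red circles are cKO libraries, grey squares control libraries, and lines the group means. The cKO libraries lie above the control libraries in all 7 subgroups, among the activation-associated genes through Spp1 alone, with lysosomal genes between 0.44 and 0.52 and activating receptors and adaptors between 0.80 and 1.14.

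Ratios of 2 members within a library restate the unequal change. These pairs were picked after the values were seen, from members with unlike changes, and are given without a test. The log2 ratio of Gpr34 to Tmem119 was 1.03 to 1.24 in cKO libraries and 0.10 to 0.67 in control libraries. The log2 ratio of Trem2 to P2ry12 was -2.08 to -1.79 in cKO libraries and -3.47 to -2.26 in control libraries. The log2 ratio of Ctsb to Csf1r was lower in the cKO, at 2.74 to 3.05, against 3.19 to 3.38 in control libraries. In none of these 3 did the groups overlap, which largely follows from how the pairs were picked. The ratio of C1qa to C1qb, given above, did overlap between groups.

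Promoter windows were searched for the recognition letters of PU.1 and of other factors, and each motif was found in only some of these genes. RefSeq windows (GRCm38.p6, 250 bases before to 50 after each transcript start) matched 29 of the 39 symbols, Pf4 included, in 34 windows. The letters GAGGAAGT, a PU.1 motif searched on both strands, were in 5 of the 34 windows (14.7%), those of C1qc, Cd53, Ctss, Spp1 and Pf4, and in 3.2% of all 32851 windows. The composite motif of ETS and IRF factors, which contains the ETS core GGAA, was in 1 member window (2.94%), that of Cd68, and in 2.72% of all windows. The E-box CACGTG, bound by the MITF and TFEB family that regulates lysosomal genes, was in 4 member windows (11.8%), those of Ctsd, Lgmn, P2ry12 and Siglech, and in 7.15% of all windows. The C/EBP motif TTGCNNAA was in 8 member windows (23.5%) of 7 genes and in 10.8% of all windows. A match is a description of these letters and not a binding site. The windows of 4 genes that rose and hold the PU.1 letters are shown because C1qc, Ctss, Cd53 and Spp1 come from 4 different subgroups. They run from 250 bases before to 30 after the start, 5′ to 3′ on the gene's strand, with the motif in capitals (ACTTCCTC is its reverse complement). C1qc is at chr4:136892885-136893164 (minus strand), Ctss at chr3:95526536-95526815 (plus), Cd53 at chr3:106790120-106790399 (minus) and Spp1 at chr5:104434861-104435140 (plus). For Cd68, 30 bases at chr11:69666128-69666157 (minus) show the composite motif. Counted from the start, the first motif base is at -195 in C1qc, -2 in Ctss, 7 in Cd53, -113 in Spp1 and 24 in Cd68.
C1qc: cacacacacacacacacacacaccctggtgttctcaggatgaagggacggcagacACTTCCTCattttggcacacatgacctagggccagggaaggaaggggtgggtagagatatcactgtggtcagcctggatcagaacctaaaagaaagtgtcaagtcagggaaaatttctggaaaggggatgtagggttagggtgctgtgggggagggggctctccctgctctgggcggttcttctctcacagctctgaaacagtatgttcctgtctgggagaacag
Ctss: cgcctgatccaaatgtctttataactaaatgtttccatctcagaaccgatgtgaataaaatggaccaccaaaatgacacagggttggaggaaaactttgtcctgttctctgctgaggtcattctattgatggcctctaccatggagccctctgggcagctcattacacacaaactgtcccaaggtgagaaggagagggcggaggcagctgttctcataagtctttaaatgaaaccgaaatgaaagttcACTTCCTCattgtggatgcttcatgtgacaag
Cd53: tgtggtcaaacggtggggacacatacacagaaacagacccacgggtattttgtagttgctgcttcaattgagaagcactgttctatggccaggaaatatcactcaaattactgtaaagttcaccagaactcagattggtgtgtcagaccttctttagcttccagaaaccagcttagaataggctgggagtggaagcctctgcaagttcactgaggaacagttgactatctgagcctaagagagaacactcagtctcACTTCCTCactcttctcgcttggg
Spp1: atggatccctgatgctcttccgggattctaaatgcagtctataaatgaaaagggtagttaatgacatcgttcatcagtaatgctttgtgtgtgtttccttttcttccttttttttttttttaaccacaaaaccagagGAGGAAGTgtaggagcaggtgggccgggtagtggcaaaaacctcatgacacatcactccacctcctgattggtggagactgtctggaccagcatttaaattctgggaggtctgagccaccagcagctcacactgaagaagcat
Cd68: aagtgaggctTTTCATTTCCtcttccaaga

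Other genes of microglia, listed by name beside the members, moved less uniformly. Of 28 such genes, 11 rose, 1 fell and 16 did not pass, with a median log2 fold change of 0.39. Rnase4, a secreted ribonuclease gene, held 144, 119, 142 and 135 in cKO libraries, against 90, 67, 83 and 80 in control libraries (0.75 ± 0.12, adjusted p = 0.00212). The groups of Rnase4 did not overlap. Sall1, a transcription factor gene of microglia that neural progenitors express as well, was at 0.08 ± 0.05 (adjusted p = 0.494). The gene that fell was Ikzf1, a zinc finger factor gene of blood cells and microglia that is also expressed in the developing striatum. It held 125, 87, 98 and 86 in cKO libraries, against 3331, 2973, 3951 and 3893 in control libraries (-5.15 ± 0.12, adjusted p = 1.38e-09).

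Genes of activated microglia were measured in part. Of 15 listed, 11 were measured, 3 rose and 8 did not pass. Cst7, a cysteine protease inhibitor gene, was close to 0, with values of 5, 4, 6 and 7 in cKO libraries, against 0, 1, 0 and 0 in control libraries (adjusted p = 0.00487). Itgax, the integrin CD11c, held 13, 5, 12 and 13 in cKO libraries, against 3, 1, 0 and 1 in control libraries (adjusted p = 0.00818). Both were absent or nearly so in the controls, and their folds depend on the constant added before the log. Ctsl, cathepsin L, rose by 0.15 ± 0.04 (adjusted p = 0.027), but was not called in the authors' deposited table (adjusted p = 0.204). Apoe, a lipid carrier gene that astroglia express strongly, was at 0.19 ± 0.05 (adjusted p = 0.058), and the growth factor gene Igf1 at 0.67 ± 0.23 (adjusted p = 0.13).

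Ligands that act on microglia and receptors of such ligands, listed together, had a median log2 fold change of 0.06. Of 13 ligand and receptor genes, 12 were measured, 1 rose (8.33%, against 2.87% of all genes) and 11 did not pass. At an unadjusted limma p under 0.05 there were 3, Csf1 among them. The riser was Pros1, a bridging ligand of the phagocytic receptor Mertk, at 224, 237, 213 and 242 in cKO libraries and at 202, 156, 178 and 162 in control libraries (log2 fold change 0.40 ± 0.09, adjusted p = 0.0281). Among the ligands of Csf1r, Csf1 was at 0.27 ± 0.09 (adjusted p = 0.106) and Il34 at -0.18 ± 0.24 (adjusted p = 0.75). Cx3cl1, the neuronal ligand of Cx3cr1, was at -0.17 ± 0.08 (adjusted p = 0.302).

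**Figure D4:**
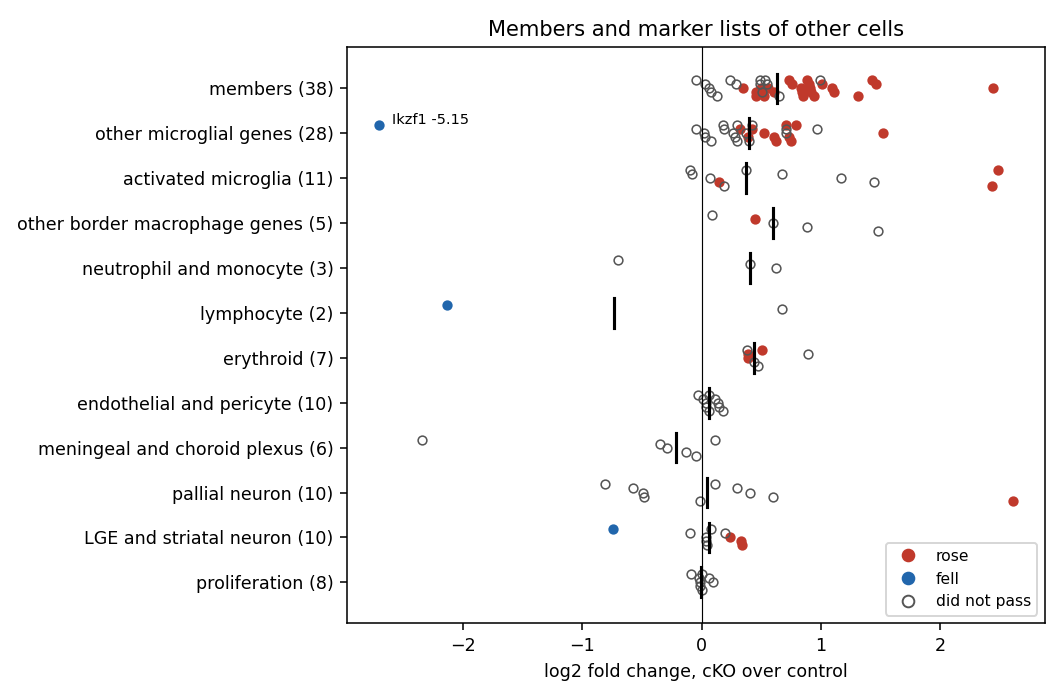
Each point is a gene placed at its log2 fold change of cKO over control, in rows for the 38 members and for marker lists, with the number of measured genes in brackets; red points rose, blue points fell, open points did not pass, and black lines are medians. Ikzf1 is drawn at the left edge with its value, -5.15; the median is 0.63 for the members and 0.06 for endothelial and pericyte genes.

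Markers of other cells that blood, vessels or a wider dissection could bring were also measured. Of 10 endothelial and pericyte genes, 0 passed the limma test and 0 passed in the authors' deposited table, with 1 (the receptor gene Kdr) at an unadjusted limma p under 0.05. They summed to 94.1 to 111 RPKM in cKO libraries and to 91.7 to 99.1 RPKM in control libraries. Of 7 erythroid genes, 3 rose (42.9%, against 2.87% of all genes) and 4 did not pass. Those that rose were Hbb-bt (0.51 ± 0.11, adjusted p = 0.0164) and the identical pair Hba-a1 and Hba-a2 (0.39 ± 0.10, adjusted p = 0.0454). The erythroid sum was 559 to 779 RPKM in cKO libraries and 393 to 619 RPKM in control libraries, with overlap. Of 10 neutrophil and monocyte genes, 3 were measured and 0 passed the limma test, at an adjusted or unadjusted p, or the authors' deposited table. S100a8 was between 10 and 23 in the cKO and between 4 and 16 in the controls, and Ly6c2 was at 0 in 2 cKO libraries and 1 control library. The part of blood cells in the members' rise was not tested. Among 6 measured meningeal and choroid plexus genes 0 passed the limma test at an adjusted or unadjusted p and 1 passed in the authors' deposited table, and they summed to 2.21 to 4.04 RPKM in cKO libraries and to 2.37 to 122 RPKM in control libraries. Ttr, the transthyretin gene of the choroid plexus, was at 17 to 70 in cKO libraries, against 3462 in control replicate 1 and 23 to 141 in the other control libraries. Without control replicate 1, 25 members rose and 0 fell, while of all 15698 genes tested 390 rose and 523 fell.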

How the data were processed

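Libraries of poly(A) RNA, 1 per embryo, were made with a kit that keeps strand, per the labels' protocols. STAR, featureCounts and edgeR were run on mm10, per the submitters' processing notes, with versions and strand setting unknown here. The authors deposited whole-number values per gene (treated as a score), RPKM made from them, and log2 fold changes with p-values. The values are not raw counts: upper quartiles lay between 1624 and 1635, and 1 direction among the 8 libraries had almost no variation (singular value 0.000241, next smallest 0.0433). This makes SDs and SEs too small to a degree; depth is unknown. No count model was fitted.

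Groups came from the labels. The 15698 genes that reached 1 or more in 4 libraries were transformed to log2(value + 1) and compared with limma 3.58.1 in R 4.3.3, with a mean trend and the Benjamini-Hochberg adjustment (threshold 0.05). Fold changes understate low genes. Errors are SE of fitted changes, or SD over 4 libraries. Permutation tests enumerated 70 assignments, two-sided; the removed direction may make their p too small. The procedure was tested on simulated data. All members are named; of other lists, the 3 genes with the smallest p and every gene passing where 5 or fewer did, except 1 that is not reported here, with a few others chosen after their values were seen (Blnk, Apoe, Igf1, Il34, Cx3cl1, Sall1, Lamp1, Psap, Slc4a1). Members and lists were chosen with earlier results of these data known; ratio pairs, the broadly expressed members and the further lysosomal genes were chosen after values were seen. Alternatives varied the constant, filter, scaling, unit, trend, block and libraries.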

Additional observations from a re-analysis of the deposited data

Results flagged for a closer look

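Among 76 groups of 4 values (the 38 measured members in cKO and in control libraries), 1 held a value far from its neighbours. Gpr34, the lysophosphatidylserine receptor gene, was at 125 in cKO replicate 4, against 141, 142 and 144 in the other cKO libraries. The gap was 0.842 of the group's range, above Dixon's 95% critical value for 4 samples. Chance alone marks about 1 in 20 groups in this way. The value still lay above all control libraries, the highest of which was 69.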

How the results depend on the processing

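In 20 alternative settings between 20 and 29 members rose and 0 fell, while between 216 and 551 of all genes rose. Of the 24 members that rose, 19 passed in every setting in which they were tested. The median log2 fold change of all members was 0.53 with a constant of 10 and 0.73 without control replicate 3 and cKO replicate 4, the libraries lowest in pallial markers; leaving out single libraries gave 0.57 to 0.72. The activating receptors and adaptors had a median of 0.69 with a constant of 10 and of 0.81 in deposited RPKM. Those are the values of Fcer1g in these settings, whereas the main median of 0.99 was that of Cd14. The border macrophage genes had a median of 1.31 where values of at least 50 were required, which left Lyz2 alone. The cause of the other shifts was not tested. All genes called numbered 1045, but 610 without those libraries and 659 to 959 without single libraries, fewer samples in each case. Cd52 was at -0.11 in the authors' deposited table and at -0.09 to 0.16 without single libraries. Slc2a5 ranged from -0.27 to 0.22 and Lpl from -0.14 to 0.07 without single libraries; none of these passed. Deviations from the group means correlated at 0.41, -0.17, -0.49 and -0.77 between cKO and control libraries of the same replicate number. The direction with almost no variation lies within the groups, so these correlations cannot decide whether number or litter pairs the libraries. With the number as a block 1199 genes were called and 23 members rose, without Spi1 (adjusted p = 0.0556). Depth is unknown, so genes near 0 such as Cd52, Cd14 and Cst7 have no known counting error.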

Other observations

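The 5 lysosomal members all rose. Of 27 further lysosomal genes, listed after the data were seen, 4 rose (14.8%, against 2.87% of all genes) and 23 did not pass. Their median log2 fold change was 0.04. The 4 were Grn, the progranulin gene (0.33 ± 0.05 (SE), limma adjusted p = 0.00236), Gusb, a glucuronidase gene (0.39 ± 0.08, adjusted p = 0.0121), Hexa, a hexosaminidase subunit gene (0.31 ± 0.06, adjusted p = 0.0124), and Scarb2, a lysosomal membrane receptor gene (0.19 ± 0.04, adjusted p = 0.00902, but 0.0541 in the authors' deposited table). The general lysosomal genes Lamp1 and Psap were at 0.02 and 0.01. The sum of the 27 genes was 786 to 816 RPKM in cKO libraries and 778 to 805 RPKM in control libraries.

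Of 10 measured genes of antigen presentation and interferon response, 2 rose and 8 did not pass. B2m, the light chain of MHC class I, held 314, 313, 354 and 338 in cKO libraries, against 224, 265, 239 and 247 in control libraries (log2 fold change 0.44 ± 0.08, adjusted p = 0.00417). Cd74, the MHC class II invariant chain, held 6, 6, 9 and 6 in cKO libraries, against 1, 2, 1 and 2 in control libraries (1.64 ± 0.35, adjusted p = 0.015). The class II gene H2-Aa was listed at 0 in all 4 cKO libraries and at 2, 1, 3 and 1 in control libraries. Blnk, an adaptor gene of B cells and microglia, held 31, 23, 17 and 23 in cKO libraries, against 9, 5, 8 and 8 in control libraries (1.52 ± 0.26, adjusted p = 0.00383).

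Of 7 lymphocyte genes 2 were measured. Cd2, an adhesion receptor gene of T cells, fell to 8, 6, 10 and 6 in cKO libraries, against 35, 35, 31 and 42 in control libraries (-2.13 ± 0.22, adjusted p = 0.000122). The B cell receptor gene Cd79a stayed at or under 6 in all libraries. The erythroid gene Slc4a1 was at 16 to 96 in cKO libraries, against 198 in control replicate 3 and 3 to 15 in the other control libraries.

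Of 8 proliferation genes 0 passed the limma test at an adjusted or unadjusted p or in the authors' deposited table, with Ccnb1, Top2a and Pcna, genes of dividing cells, at 0.10, 0.06 and -0.09. Of 10 LGE and striatal neuron genes 3 rose and 1 fell. Those that rose were the transcription factor genes Meis2 (0.34), Dlx5 (0.24) and Dlx6 (0.33), and Ppp1r1b, the signalling inhibitor of medium spiny neurons, fell by 0.74 on the log2 scale. Of 10 pallial neuron genes 1 rose, the transcription factor gene Bhlhe22 (2.61 ± 0.39, adjusted p = 0.00151), and 9 did not pass. The part of these neurons in the members' rise was not tested.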
